A study of Mus musculus with 15 samples.

Results

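The genes described here build and remodel the extracellular matrix: collagens, laminin chains, ADAMTS proteases, matrix metalloproteinases (Mmp), the TIMP inhibitors of these proteases and the lysyl oxidases (Lox, Loxl). Members were taken by gene symbol alone, as every numbered gene of these families with at least 20 unique molecular identifiers (UMIs, each standing for 1 captured transcript) over all animals. Of 102 symbols of these families among 27803 genes, 90 met the minimum. The 12 below it were Col6a6, Mmp27, Col6a4, Mmp13, Col24a1, Col6a5, Mmp20, Adamts13, Col10a1, Mmp21, Loxl4 and Mmp3. The members comprised 10 fibrillar collagens, 8 network-forming collagens, 9 fibril-associated (FACIT) collagens, 12 other collagens, 5 laminin alpha chains, 3 beta chains, 3 gamma chains, 18 Adamts genes, 14 Mmp genes, 4 Timp genes and 4 lysyl oxidases.

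Single cells were captured with barcoded beads in droplets (Drop-seq) from 15 mice on the C57BL/6 strain, 5 in each of 3 groups. WT cerebella were untreated and taken at postnatal day 7 (P7). Tumors were medulloblastomas of Math1-Cre:SmoM2/EYFPloxP/loxP mice, called M-Smo, in which Cre, driven by the Math1 promoter in granule neuron progenitors, turns on the always-active Smo variant SmoM2 with its EYFP tag. M-Smo mice received 3 daily doses of the Smo inhibitor vismodegib at 75 mg/kg, or vehicle, and tumors were taken at P15. Vehicle and WT animals differed in genotype, age, dosing with vehicle and the capture device (glass for tumors, polymer for WT). Only tumor runs held a spike-in of human cells. These differences cannot be told apart in any comparison of the 2 groups. Each mouse was 1 library, and both comparisons below share the vehicle group.

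Fibrillar collagens give connective tissue its strength, network collagens and laminins assemble the basement membrane that surrounds vessels and covers the brain surface, and FACIT collagens sit on fibrils. Lysyl oxidases crosslink collagen and elastin, Mmp and ADAMTS enzymes cut matrix proteins or process procollagen, and TIMPs block these enzymes. In the postnatal cerebellum the meninges and vessels are the classical source of fibrillar collagen and basement membrane, and the brain parenchyma otherwise holds little fibrillar matrix.

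The tables held 51841 barcodes, of which 37946 passed the filters as cells: 5061 of 7224 in WT, 17181 of 18293 in vehicle and 11048 of 12429 in vismodegib were granule neuron lineage-like. Total UMIs per animal ranged from 2310474 to 17708677, and the median per kept cell from 1082.5 to 2597. No pair of the 105 possible pairs of animals shared more than 13 barcodes. The members took 106703 UMIs, or 0.133% of all UMIs in kept cells, and neither they nor their matrix partner genes took part in clustering or in the naming of clusters. Classes are called "-like" because they were rebuilt here from clusters and marker genes. The 10 tumors were split into sets by sign on the first principal component of their granule lineage levels, after each treatment group's mean was taken out. It held 38.4% of that remaining variance. Vehicle 1, Vehicle 3, Vismodegib 1 and Vismodegib 2 scored from 28.9 to 41.5, and the rest from -34.1 to -3.60.

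Per UMI of the class, the matrix genes were highest among named classes in the scarce vascular ones, while granule lineage cells, by number, held more of their UMIs in tumors than any other class. Vascular fibroblast-like cells were 2.22 ± 0.608% of WT cells, 0.429 ± 0.145% of vehicle cells and 1.02 ± 0.227% of vismodegib cells (mean ± SD, n = 5), yet they held 41.0%, 16% and 26.1% of all member UMIs. The summed level of the 90 genes in these cells was 24321 ± 4669 CPM (UMIs per 1000000 UMIs of the class in each animal) in WT, 39576 ± 12875 in vehicle and 34426 ± 6324 in vismodegib. Mural-like cells had 11746 CPM in WT (mean of 3 animals), 14766 in vehicle (1 animal) and 17618 in vismodegib (mean of 2). Endothelial-like cells had 3533 ± 849.9, 6043 ± 1288 and 5638 ± 1419 CPM, and astrocyte-like cells had 2284 ± 331, 2869 ± 202 and 3093 ± 422. Granule lineage cells had 628 ± 55.2, 970.5 ± 224 and 854 ± 90.1 CPM, the lowest of these 5 classes, and held 31.8% of member UMIs in WT, 69.1% in vehicle and 49.5% in vismodegib. These levels describe classes made from the same cells and were not tested. CPM values count captured transcript ends and were not scaled by gene length.

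**Figure D1:**
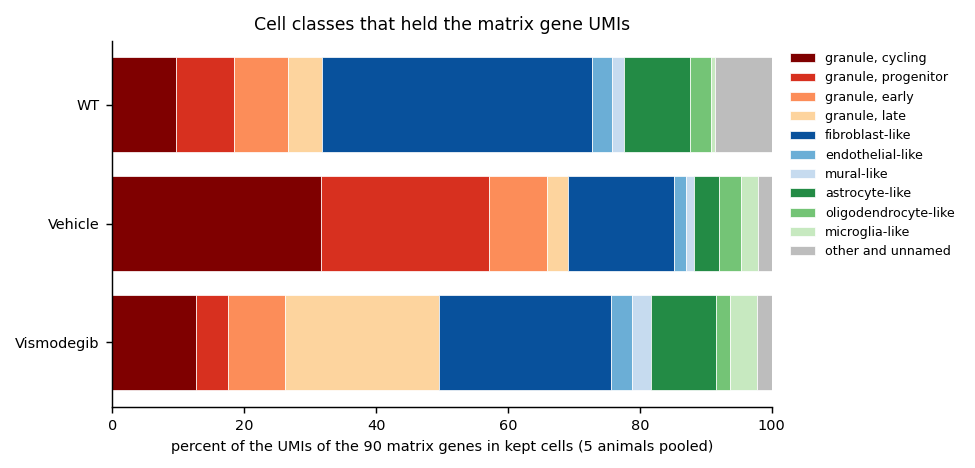
Share of the UMIs of the 90 matrix genes held by each cell class, in percent (horizontal axis), for WT, vehicle and vismodegib (vertical axis), with 5 animals pooled in each bar. Fibroblast-like cells held 41.0% in WT and 16% in vehicle, and late differentiating granule lineage cells held 3.19% in vehicle and 23.3% in vismodegib.

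In vehicle tumors, 63 members had at least 10 UMIs in the class where their mean level was highest. That class was fibroblast-like for 42 of them, oligodendrocyte lineage-like for 7, astrocyte-like for 4, granule lineage-like for 5, microglia-like for 3 and neuron-like for 2. For 24 of the 63, every animal's level in the leading class lay above every animal's level in the next one, and 21 of these were led by fibroblast-like cells. The minimum of 10 UMIs was counted in the leading class itself, and shares over all genes were not computed. These counts are therefore not read as particular to matrix genes. Mural-like cells reached the minimum of 5 cells in only 1 vehicle animal and were left out of this order. In WT, where 3 animals had enough mural-like cells, these led Col4a1, Col4a2, Lamc1 and Lama4. Pooled over all animals, mural-like cells also had the highest level of other members, among them Adamts1, Timp3 and Lamb2.

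The type I, III and V fibrillar collagens were highest in fibroblast-like cells. Col3a1, a chain of type III collagen, had 4310.1, 10533, 11901, 6349 and 8785 CPM in fibroblast-like cells of Vehicle 1 to 5, and its next class, endothelial-like, had a mean of 74. Both chains of type I collagen were led by the same cells, with Col1a2 at 4919 ± 1356 and Col1a1 at 1541 ± 923 CPM in fibroblast-like cells (n = 5). The type V chain Col5a2 had 290.1 ± 95.4 CPM there. Granule lineage cells held 8.56% of the Col3a1 UMIs of vehicle tumors, at a mean of 4.19 CPM over animals and 5.30 CPM pooled. The pooled level was below the 14.2 CPM that would result if the fibroblast marker UMIs found in granule lineage cells had brought Col3a1 with them at the ratio of fibroblast-like cells. No expression by granule lineage cells is read from it, and where these UMIs came from was not tested. Col1a2 was likewise below that value in granule lineage cells of all 3 groups (12.5, 3.38 and 5.97 CPM pooled, against 20.7, 8.59 and 12.9).

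Col11a1, a type XI chain that sets fibril diameter, was also highest in fibroblast-like cells, at 121 ± 63.8 CPM in WT and 84.4 ± 38.2 in vehicle, beside 55.4 ± 5.37 and 49.4 ± 3.01 in granule lineage cells. Barcodes under 500 UMIs, pooled, held it at 53.6 CPM in WT and 32.4 in vehicle (102 and 10 UMIs). Col2a1, best known from cartilage, was led by astrocyte-like cells in both groups, at 62.6 ± 16.5 CPM in WT and 40.6 ± 18.7 in vehicle. Col11a2 was led by oligodendrocyte lineage-like cells, with a mean of 23.6 CPM in WT and 29.7 in vehicle.

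Basement membrane chains were shared by the vascular classes. Col4a1 and Col4a2, which assemble into the main type IV collagen network, had 5035 ± 2162 and 3319 ± 1083 CPM in fibroblast-like cells of vehicle tumors and 1498 ± 552 and 1604 ± 629 in endothelial-like cells. Their genes start 21 bases apart on opposite strands of chromosome 8 in the GENCODE M21 annotation. Col4a5 and Col4a6, a second head-to-head pair on chromosome X, were found in fibroblast-like cells at 545 ± 96.2 and 146 ± 42.9 CPM, well above their astrocyte-like means of 27.9 and 5.62. Col4a3 and Col4a4 stayed at 26 and 23 UMIs in all kept cells. Of the laminins, Lama4, the alpha chain of vessel laminin, had 790.1 ± 487 CPM in fibroblast-like and 654 ± 217 in endothelial-like cells. Lama2 and Lama1 were led by fibroblast-like cells with 292 ± 145 and 432 ± 159 CPM, as were the partner chains Lamb1 (1564 ± 606), Lamb2 (209 ± 103) and Lamc1 (637 ± 292). For Lama5, granule lineage cells held 97.0% of the 1855 UMIs of vehicle tumors, at 56.7 ± 34.1 CPM, beside 54.1 ± 51.3 in endothelial-like cells, ranges that overlapped. In vismodegib the endothelial-like level was 80.1 ± 64.1 CPM, from 15 UMIs, and the granule lineage level 6.50 ± 4.94.

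FACIT and other collagens named here were highest in glia-like or fibroblast-like cells. Col9a3, a type IX chain with the most UMIs of any member (8575), had 275 ± 60.3 CPM in oligodendrocyte lineage-like and 207 ± 78.8 in astrocyte-like cells of WT, ranges that overlapped. Its partner Col9a1 was led by oligodendrocyte lineage-like cells at 38.8 ± 18.2 CPM in vehicle tumors, and Col9a2 had its highest mean in fibroblast-like cells, at 65.1 ± 19.4 CPM in WT and 39.9 ± 46.2 in vehicle, beside 12.1 ± 4.19 in granule lineage cells of vehicle tumors. Col15a1 and Col18a1, the multiplexin collagens next to basement membranes, had 2065 ± 2017 and 1340.3 ± 537 CPM in fibroblast-like cells of vehicle tumors. The type VI chains Col6a1, Col6a2 and Col6a3, which form beaded filaments around cells, had 1046 ± 628, 997 ± 1127 and 434 ± 583 CPM there. Vehicle 3, with 6 fibroblast-like cells, was far above the others, and without it the vehicle means were 1168 ± 231 CPM for Col15a1, 766 ± 70.1 for Col6a1 and 497 ± 154 for Col6a2 (n = 4). Col13a1 and Col26a1 were likewise led by fibroblast-like cells at 569 ± 308 and 292 ± 201 CPM. Col23a1, a membrane collagen, was highest in astrocyte-like cells in WT (152 ± 72.6 CPM) and in fibroblast-like cells in vehicle tumors (229.7 ± 107).

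Enzymes and inhibitors had the widest spread of sources. Timp2 was led by microglia-like cells, with 1402, 748, 672, 945 and 2266 CPM in Vehicle 1 to 5 and 165 to 414 over the 5 WT animals, ranges that did not overlap, although no test was made in this class. Timp4 was led by astrocyte-like cells (385 ± 119 CPM in WT, 532 ± 192 in vehicle) and so was Adamts1 in vehicle tumors (339 ± 195), with mural-like cells left out there. Timp3, an inhibitor that binds to the matrix itself, was found in astrocyte-like cells at 427 ± 103 CPM in WT and 352 ± 123 in vehicle, and in fibroblast-like cells at 296 ± 100.3 and 704 ± 568. Oligodendrocyte lineage-like cells led the membrane-type metalloproteinases Mmp16 and Mmp15 in vehicle tumors, at 274 ± 74.1 and 187 ± 76.9 CPM, and Adamts4, a protease that cuts chondroitin sulfate proteoglycans, at 31.9 ± 41.0. Mmp14 and the gelatinase Mmp2, which Mmp14 activates, were led by fibroblast-like cells at 701 ± 283 and 234 ± 38.6 CPM. In WT, Adamts3, a procollagen peptidase, was led by Purkinje-like cells, with 101, 60.6, 176, 121 and 64.4 CPM in WT 1 to 5. Mmp12, the macrophage elastase, had 18 of its 19 vehicle UMIs in microglia-like cells.

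**Figure D2:**
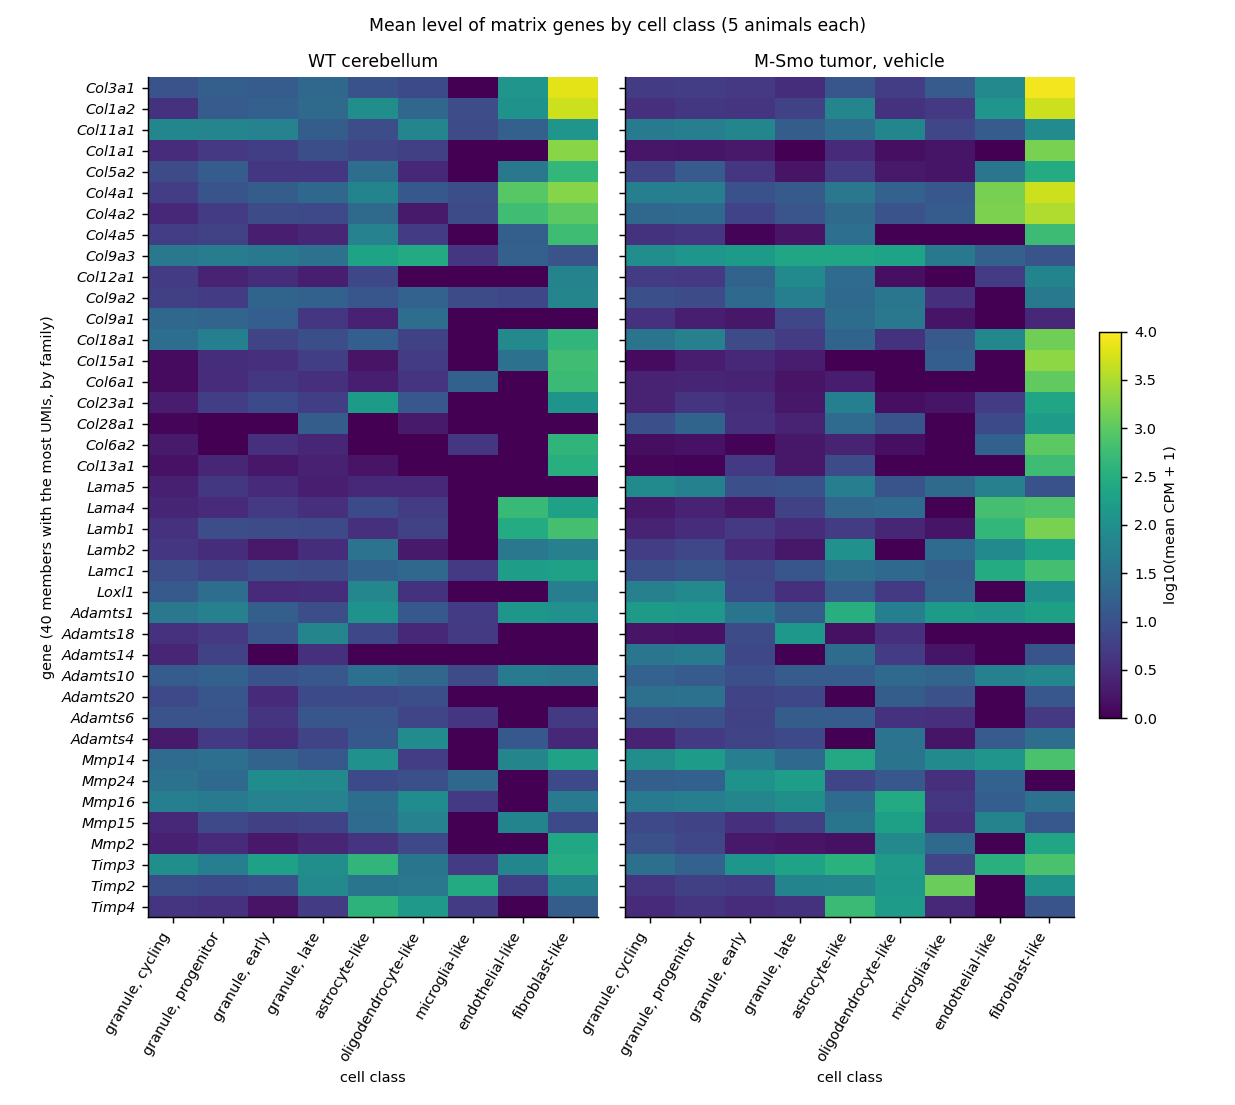
Mean level of the 40 members with the most UMIs, ordered by family (vertical axis), in 9 cell classes (horizontal axis) of WT cerebellum (left) and vehicle-treated M-Smo tumors (right). Color gives log10(mean CPM + 1) over 5 animals: Col3a1, at a mean of 8376 CPM in fibroblast-like cells of vehicle tumors, is the brightest square, while Lama5 and Adamts14 are bright in cycling and progenitor granule lineage cells of tumors and darker in WT.

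The comparison of vismodegib with vehicle asks what inhibition of Smo changed in tumors of the same age. In granule lineage cells, 36 members passed the low-count filter and 54 did not. Of those tested, 11 were lower and 6 higher in vismodegib at an adjusted p under 0.05 (edgeR quasi-likelihood test, Benjamini-Hochberg over all genes), where 4.63% of all genes tested were lower and 8.40% higher. The median log2 fold change was -0.08 over the tested members and 0.00 over all 12430 genes tested. DESeq2, which filters otherwise and gave 74 members an adjusted p, called 15 lower and 9 higher. No share over all genes is given for DESeq2 here or below. The targeted pathway was checked through Gli1, the transcriptional readout of Shh signaling, whose log2 fold change in these cells was -0.47 ± 0.31 (SE, edgeR adjusted p = 0.386).

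Lama5, Col4a1 and Col4a2 fell with vismodegib in granule lineage cells. Lama5, the laminin alpha chain of mature basement membranes, had 110.2, 55.5, 58.9, 17.5 and 41.2 CPM in Vehicle 1 to 5 and 9.47, 13.6, 2.29, 2.16 and 5.01 in Vismodegib 1 to 5. Every vismodegib animal lay below every vehicle animal, with a log2 fold change of -3.17 ± 0.52 (SE, edgeR adjusted p = 0.0013). Col4a1 was 51.8, 41.2, 62.3, 23.0 and 37.0 CPM in vehicle and 9.47, 6.93, 7.77, 9.91 and 11.9 in vismodegib (-2.18 ± 0.25 on the log2 scale, edgeR adjusted p = 0.000212). Its neighbor Col4a2 also fell, at -1.70 ± 0.30, from 18.1 ± 5.21 to 5.50 ± 2.21 CPM (edgeR adjusted p = 0.00209). Neither pair of ranges overlapped.

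Type IV collagen is a marker of vessels, and the summed endothelial markers were also lower with vismodegib in the same sums, without overlap. The 14 endothelial markers summed to 54.9 to 132 CPM in granule lineage cells of vehicle tumors and 35.2 to 49.3 in vismodegib, and all 14 were detected in both. In endothelial-like cells of vehicle tumors themselves they summed to 15998 to 22628 CPM. Ramp2, which is among these markers, is listed in the paper's supplement as higher in a cluster of vehicle-treated tumors with raised Hes1 and Atoh1. The marker sums, and the values taken from them, thus need not come from vessel RNA alone. If these marker UMIs had carried Col4a1 at the ratio of endothelial-like cells, granule lineage cells of vehicle tumors would have held 7.88 CPM of Col4a1, or 7.37 at the ratio of fibroblast-like cells to their own markers, against 40.5 measured. In vismodegib the corresponding values were 3.6 and 5.61, against 9.86. At the ratio of mural-like cells to their own markers, the Col4a1 value was 2.89 CPM in vehicle and 2.995 in vismodegib. For Lama5 in vehicle tumors the value at the endothelial ratio was 0.299 CPM, against 50.7. Such values assume that a source keeps its genes in 1 fixed ratio, here and for the genes below. Each is for 1 source alone, and RNA from several sources would add. What part other cells had in the levels and differences, singly or combined, was not tested.

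Loxl1, Col28a1, Col27a1 and Col11a1 fell in the same cells. Loxl1, a lysyl oxidase that crosslinks elastin, had 37.6, 72.7, 46.7, 42.9 and 59.4 CPM in Vehicle 1 to 5 and 13.7, 15.3, 10.5, 7.41 and 8.96 in Vismodegib 1 to 5, again with no overlap (-2.26 ± 0.24, edgeR adjusted p = 0.000137). Col28a1, a rare collagen of the von Willebrand factor A group, fell from 10.7 ± 3.33 to 0.955 ± 0.737 CPM (-3.31 ± 0.42), and the fibrillar collagen Col27a1 from 6.51 ± 2.39 to 1.12 ± 0.768 (-2.65 ± 0.43). Both are counted from under 1 CPM in some vismodegib animals, so their fold changes rest on few UMIs. Col11a1 fell by a smaller step, from 49.4 ± 3.01 to 32.6 ± 5.94 CPM (-0.60 ± 0.14, edgeR adjusted p = 0.0122).

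Among the proteases, 4 genes fell and 2 rose. Adamts1, a versican- and aggrecan-cutting protease, was 132, 106, 135, 117 and 106 CPM in Vehicle 1 to 5 and 56.4, 34.9, 64.5, 31.2 and 29.8 in Vismodegib 1 to 5 (-1.48 ± 0.21, edgeR adjusted p = 0.000582). Mmp14, which cuts collagen at the cell surface, fell from 104 ± 44.2 to 47.0 ± 21.9 CPM (-1.17 ± 0.33, edgeR adjusted p = 0.0308), but the groups overlapped, and the call was lost with cells of at least 1000 UMIs and without any 1 of 6 animals (Vehicle 1, 2 or 5, Vismodegib 3, 4 or 5). Mmp2 fell from 6.22 ± 2.64 to 2.84 ± 1.09 CPM (-1.18 ± 0.34), with overlap, and lost its call without any of 7 animals (Vehicle 1, 2 or 5, Vismodegib 2, 3, 4 or 5). Mmp11, stromelysin-3, fell from 4.39 ± 1.43 to 1.35 ± 0.590 CPM (-1.72 ± 0.36).

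Among the 6 members that rose was Adamts18, an orphan ADAMTS protease. It had 7.33, 4.52, 10.9, 9.97 and 3.32 CPM in Vehicle 1 to 5 and 34.1, 41.6, 41.1, 61.8 and 71.0 in Vismodegib 1 to 5, a log2 fold change of 2.87 ± 0.34 (edgeR adjusted p = 0.000216). The neuronal membrane-type metalloproteinase Mmp24 rose from 38.2 ± 19.7 to 114 ± 25.9 CPM (1.60 ± 0.30), and the FACIT collagen Col12a1 from 9.51 ± 3.51 to 28.0 ± 12.1 (1.61 ± 0.33). With the granule lineage taken as a single class, neuron-like cells had the highest means of Adamts18 (154 and 161 CPM) and Mmp24 (116 and 201) in both tumor groups. This neuron-like cluster was led by Gabra6 and Cbln3, and Gabra6 is also on the marker list of late differentiating granule lineage cells. The class is thus not clearly apart from that lineage. Late differentiating cells alone, given by stage below, had higher means of Mmp24 in both groups and of Adamts18 in vismodegib. The 10 neuron markers summed to 1037 to 1861 CPM in granule lineage cells of vehicle tumors and 2008 to 3776 in vismodegib, without overlap, with 9 of 10 detected and Pclo at 0. The paper's supplement lists Stmn2, which is among them, as detected in proliferating tumor cells too, so the sums need not come from another cell type. The part of neuron-like cells in these rises was not tested. Of the inhibitors, Timp2 rose from 6.14 ± 2.30 to 27.4 ± 8.03 CPM (2.21 ± 0.30) and Timp3 from 48.1 ± 10.8 to 90.8 ± 16.3 (0.94 ± 0.19), with edgeR adjusted p = 0.000433 and 0.00457. Timp2 is abundant in microglia-like cells, whose 12 markers summed to 8.44 to 44.3 CPM in granule lineage cells of vehicle tumors and 39.8 to 66.4 in vismodegib. At the microglial ratio these would carry 1.97 CPM of Timp2 in vismodegib, against 30.2 measured, and the part of microglial RNA in the change was not tested. The laminin chain Lamb1 rose from 2.07 ± 0.370 to 5.26 ± 1.45 CPM (1.29 ± 0.30). Its pooled vehicle level of 2.09 CPM was no higher than the 2.34 at the ratio of fibroblast-like cells, while its vismodegib level of 4.60 was above the 1.76 at that ratio.

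Barcodes under 500 UMIs, pooled over the 5 animals of a group, held 11 of the 17 called members at or above the granule lineage mean in vehicle and 9 of 17 in vismodegib, from 0 to 45 UMIs a gene. In WT they held 13 of the same 17 at or above that mean, from 4 to 261 UMIs a gene. Lama5 was at 71.3 CPM in these barcodes of vehicle tumors and 3.40 in vismodegib (22 UMIs and 1 UMI), and Adamts18 at 29.2 and 78.2 (9 and 23 UMIs). In microglia-like cells Lama5 had means of 23.3 and 2.62 CPM in vehicle and vismodegib, Adamts18 0 and 4.37, and Adamts1 149.9 and 145, above its granule lineage means. What part free RNA had in the granule lineage values was not tested.

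**Figure D3:**
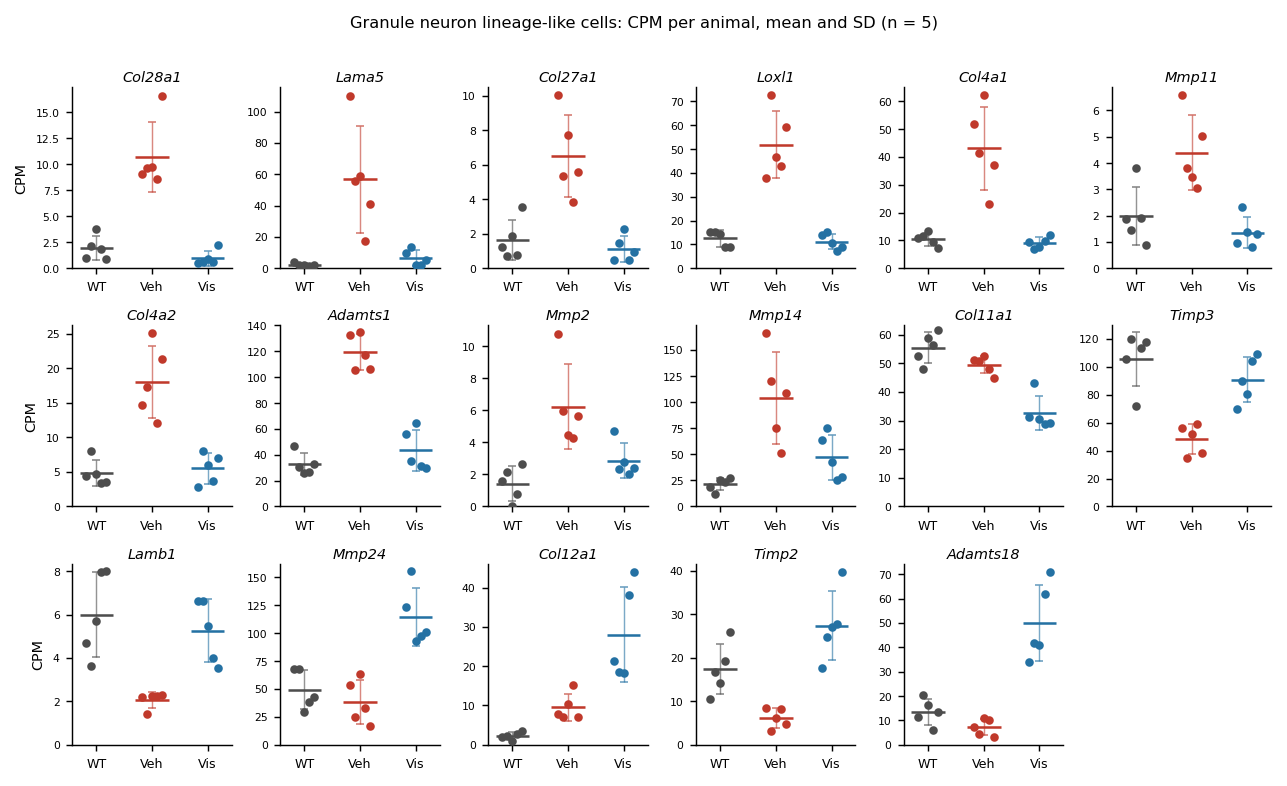
CPM per animal (vertical axes, linear, a scale for each gene) of the 17 members called between vismodegib and vehicle in granule lineage-like cells, by group (horizontal axes: WT, vehicle, vismodegib). Points are animals, the long line is the mean and the bar the SD (n = 5): in vehicle tumors Lama5 spans 17.5 to 110.2 CPM and in vismodegib 2.16 to 13.6, while Adamts18 spans 3.32 to 10.9 and 34.1 to 71.0.

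The make-up of the granule lineage differed between the groups, so each stage was also compared alone. Late differentiating cells were 5.43 ± 3.03% of cells in vehicle and 29.0 ± 12.5% in vismodegib (mean ± SD, n = 5), progenitors 35.1 ± 4.62% and 13.7 ± 5.99%, and cycling cells 33.1 ± 2.46% and 22.9 ± 5.48%. In cycling cells, 6 of 21 tested members were lower and 1 higher, where 1.66% and 0.834% of all genes were. In progenitors, 8 of 17 were lower and 0 higher, with a background of 2.11% and 1.42% (3.54% in either direction). In early differentiating cells the count was 1 of 10 lower (background 0.336%) and 0 higher (background 0.128%, and 0.464% in either direction). In late differentiating cells edgeR called 0 of 8, with 2 at an unadjusted p under 0.05, where 0% of all genes were higher and 0.0493% lower. DESeq2 was not run within stages.

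Lama5 fell both in cycling cells, at -2.87, and in progenitors, at -2.47 on the log2 scale (edgeR adjusted p = 0.00298 and 0.0136). Loxl1 changed by -1.53 and -1.91, Col4a1 by -2.21 and -1.64, and Adamts1 by -0.96 and -1.22, each called in both stages. Other genes lower over the whole lineage were called in 1 of the stages where they were tested or in none. Col4a2 was called in cycling cells (-1.58) and not in progenitors (-1.39). Col11a1 and Mmp14 were called in progenitors (-0.96 and -0.95), but not in cycling (-0.50 and -0.62) or early differentiating cells (-0.16 and -0.54). Mmp2 was tested in cycling cells and not called (-0.83), and Col27a1 and Mmp11 passed the low-count filter in no stage. Adamts1 was also called in early differentiating cells, at -1.64 ± 0.30 (edgeR adjusted p = 0.0205). Col28a1 passed the low-count filter in progenitors alone, with 18.6, 16.4, 20.2, 12.2 and 25.9 CPM in Vehicle 1 to 5 and 0, 1.43, 0, 0 and 5.46 in Vismodegib 1 to 5. Col9a3 was called lower in cycling cells (-1.19 ± 0.23) and progenitors (-0.90 ± 0.22), although over the whole lineage it was not called (-0.08 ± 0.19). Of the 4 stages, late differentiating cells had the highest Col9a3 means in tumors, at 230.5 ± 85.0 CPM in vehicle and 262 ± 80.3 in vismodegib.

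Of the 6 risers, Timp2 was called in 1 of the 2 stages where it was tested, Lamb1 passed the low-count filter in none, and the other 4 were called in none of the stages where they were tested (Adamts18 and Col12a1 in the early and late stages, Mmp24 and Timp3 in all 4). Adamts18 and Col12a1 were found mainly in late differentiating cells, where Adamts18 had 193, 106, 146, 110.3 and 127 CPM in Vehicle 1 to 5 and 202, 208, 196, 153 and 154 in Vismodegib 1 to 5 (0.45 ± 0.19, edgeR adjusted p = 0.798). Those ranges overlapped. Col12a1 had 80.7 ± 37.8 and 79.3 ± 11 CPM there (-0.08 ± 0.25), and Mmp24 176 ± 77.6 and 229 ± 69.5 (0.40 ± 0.26). Timp3 was -0.49 ± 0.23 in late differentiating cells and -0.26 ± 0.35 in progenitors, opposite in sign to the value over the whole lineage, and neither was called. Timp2 rose by 1.45 ± 0.33 in cycling cells (edgeR adjusted p = 0.0308) and was not called in late differentiating cells, at 0.47 ± 0.33, against 2.21 over the whole lineage. The comparison by stage was chosen after the data were seen, and it tests fewer members because the counts are split.

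**Figure D4:**
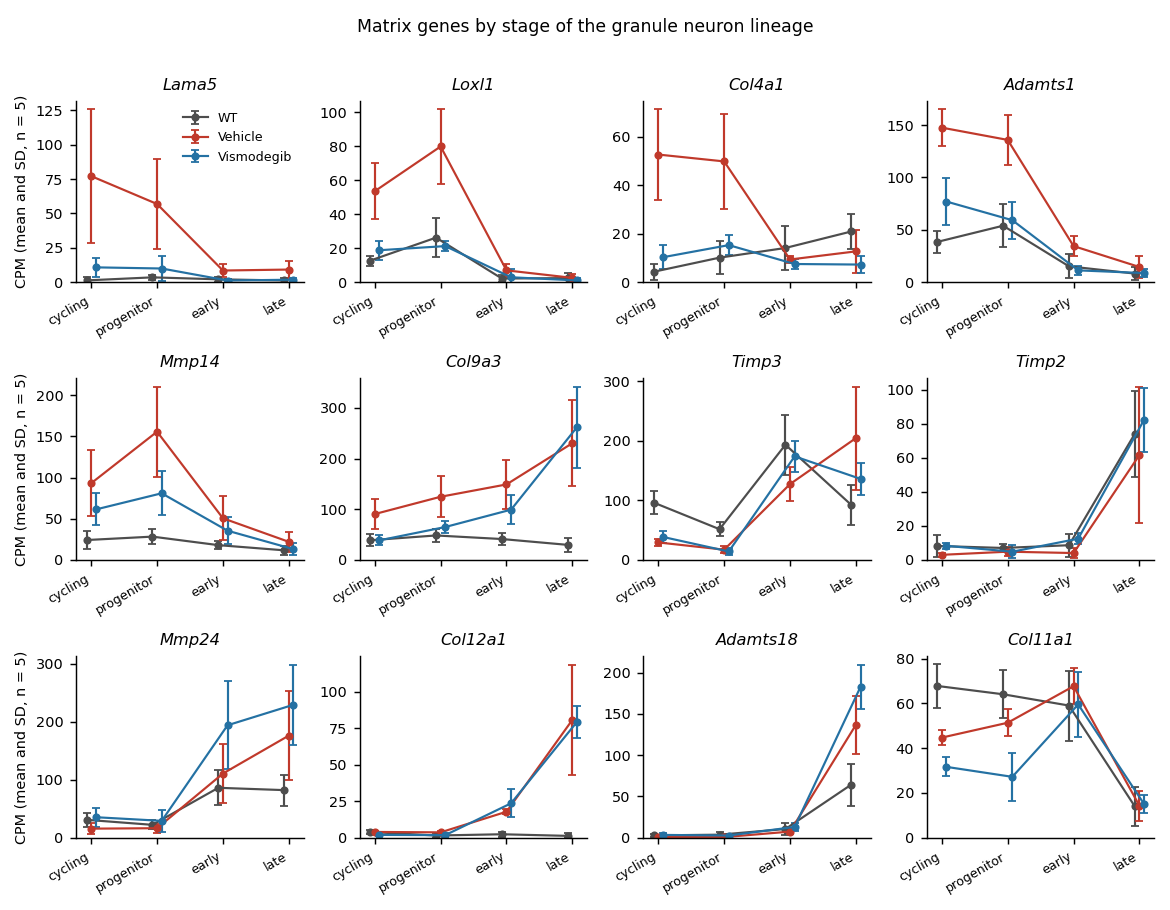
Mean CPM with SD over 5 animals (vertical axes, linear, a scale for each gene) of 12 members across the 4 granule lineage stages, cycling to late differentiating (horizontal axes), for WT, vehicle and vismodegib, with WT stages named in a clustering of their own. Lama5, Loxl1, Col4a1 and Adamts1 stand apart in cycling cells and progenitors of vehicle tumors, with Loxl1 at 79.7 CPM in vehicle and 21.1 in vismodegib progenitors, while Adamts18 and Col12a1 climb in the late stage of both tumor groups.

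The bases before the start sites of 4 of these genes are shown as examples and were not picked by the size of their change. Lama5, Adamts1 and Mmp14 were called lower with vismodegib in granule lineage cells, and Adamts18 higher. Each is the 250 bases upstream of the RefSeq start in build GRCm38.p6, read 5′ to 3′ on the strand of the gene. Capitals mark GGGCGG or its reverse complement CCGCCC (the GC box) and TATAAA or TTTATA (the TATA box). Lama5 lies at chr2:180225860-180226109 (minus strand), Adamts1 at chr16:85803114-85803363 (minus), Mmp14 at chr14:54431348-54431597 (plus) and Adamts18 at chr8:113848840-113849089 (minus). No annotated exon overlaps these windows.
Lama5: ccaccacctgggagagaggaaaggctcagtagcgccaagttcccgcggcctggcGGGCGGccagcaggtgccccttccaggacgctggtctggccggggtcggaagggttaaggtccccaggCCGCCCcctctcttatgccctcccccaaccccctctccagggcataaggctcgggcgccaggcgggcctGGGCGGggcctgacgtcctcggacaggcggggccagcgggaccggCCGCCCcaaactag
Adamts1: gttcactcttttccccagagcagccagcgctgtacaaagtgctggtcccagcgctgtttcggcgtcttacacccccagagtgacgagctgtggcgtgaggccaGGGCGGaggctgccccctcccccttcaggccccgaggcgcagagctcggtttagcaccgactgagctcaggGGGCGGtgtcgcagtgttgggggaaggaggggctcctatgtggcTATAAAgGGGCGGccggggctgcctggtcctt
Mmp14: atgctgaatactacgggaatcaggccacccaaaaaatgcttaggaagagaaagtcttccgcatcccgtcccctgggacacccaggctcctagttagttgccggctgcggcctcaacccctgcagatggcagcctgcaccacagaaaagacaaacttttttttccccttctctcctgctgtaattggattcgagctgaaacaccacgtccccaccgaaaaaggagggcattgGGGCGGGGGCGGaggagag
Adamts18: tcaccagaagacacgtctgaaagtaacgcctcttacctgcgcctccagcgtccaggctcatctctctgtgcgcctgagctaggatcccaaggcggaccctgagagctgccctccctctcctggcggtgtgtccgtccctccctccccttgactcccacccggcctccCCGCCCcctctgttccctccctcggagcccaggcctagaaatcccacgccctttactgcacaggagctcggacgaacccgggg
The GC box letters were found, on either strand, in 36 of the 57 members with a RefSeq promoter and in 32.7% of all 32851 windows of this length, and the TATA box letters in 5 of 57 and 12.4%. The Gli motif GACCACCCA, or TGGGTGGTC, was in 0 of 57 member windows and in 0.225% of all windows, which says only that these letters are not in these 250 bases. A match is a description of the letters and not of binding.

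Fibroblast-like cells were 0.429 ± 0.145% of cells in vehicle and 1.02 ± 0.227% in vismodegib tumors, and no animal of the 2 groups overlapped (two-sided exact permutation test, p = 0.00794, the smallest that 5 against 5 can give, adjusted p = 0.0317 over 4 classes). Within them, DESeq2 called 0 of the 31 members to which it gave an adjusted p. Of 17 members tested, edgeR called 0, with 4 at an unadjusted p under 0.05, where 1.22% of the 329 genes tested were called higher and 0% lower. The remaining 73 members were below the low-count filter in these 85 vehicle and 122 vismodegib cells. The median log2 fold change was -0.46 over the tested members and -0.06 over all genes tested. The 4 were Col3a1 (-0.69 ± 0.26), Col1a2 (0.57 ± 0.24), Col4a5 (0.64 ± 0.28) and Lama4 (-0.94 ± 0.41), with edgeR adjusted p from 0.278 to 0.3. Astrocyte markers in the same cells summed to 7770.2 to 16162 CPM in vehicle and 21842 to 26025 in vismodegib. Their part in these values was not tested.

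Over all kept cells of each animal, 14 of 61 tested members were higher and 5 lower in vismodegib, where 9.23% and 4.69% of all genes were. The median log2 fold change was 0.35 over the members and -0.00 over all genes. DESeq2 called 19 higher and 8 lower of the 85 members to which it gave an adjusted p. In such sums, more cells of a type and more RNA per cell cannot be told apart. The type I collagen chains, held by fibroblast-like cells, rose: Col1a2 had 23.6, 15.6, 38.1, 29.6 and 52.4 CPM in Vehicle 1 to 5 and 74.8, 79.1, 86.5, 106 and 110.4 in Vismodegib 1 to 5 (1.48 ± 0.28, edgeR adjusted p = 0.00395), with no overlap, and Col1a1 rose by 1.62 ± 0.29. Col4a5, Col4a6 and Lama2, also led by fibroblast-like cells, rose by 1.25, 1.23 and 1.22 on the log2 scale. The call for Col4a6 was lost without the low-count filter and without Vehicle 2, 3, 4 or 5 or Vismodegib 1, and that for Lama2 without Vismodegib 5. Col3a1 was not called, at 0.38 ± 0.30 (edgeR adjusted p = 0.452). The inhibitors Timp1, Timp2 and Timp3 rose by 1.18, 1.37 and 0.96, and the procollagen peptidase Adamts2 by 1.97 from a mean of 1.14 CPM. Microglia-like cells, which led Timp2, were 0.364 to 1.44% of cells in vehicle animals and 1.61 to 3.32% in vismodegib animals. Astrocyte-like cells, where the pooled level of Timp1 was highest, were 1.05 ± 0.651% and 3.19 ± 2.28% (mean ± SD). Timp3, also found in astrocyte-like cells, was called higher within granule lineage cells, the most numerous class in both groups. Timp1 lost its call without the low-count filter and without Vehicle 2 or 4 or Vismodegib 1, 4 or 5. Mmp23 rose by 1.4 from 1.16 CPM. Adamts18, Col12a1 and Mmp24 rose, and Adamts1, Col11a1, Col28a1, Lama5 and Loxl1 fell, as in the granule lineage. Lamb1 also rose (0.67 ± 0.21), with overlapping ranges, and lost its call with RLE scaling, with cells of at least 1000 UMIs, without the low-count filter and without any of 8 animals (Vehicle 1, 2, 4 or 5, Vismodegib 1, 2, 3 or 5).

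The other classes gave few tested members. In endothelial-like cells, 4 passed the filter, Col4a1, Col4a2, Lama4 and Timp3, and edgeR and DESeq2 called 0 of them, with 0 at an unadjusted p under 0.05 (0% of 442 genes called higher and 0% lower). Their log2 fold changes ran from -0.50 ± 0.36 for Lama4 to 0.27 ± 0.31 for Col4a1. In astrocyte-like cells, 1 of 5 was higher and 0 lower, where 1.44% and 0.796% of all genes were. It was Col9a3, with 198, 184, 205, 280.0 and 296 CPM in Vehicle 1 to 5 and 417, 702, 409, 520.3 and 453 in Vismodegib 1 to 5, all higher (1.04 ± 0.24, edgeR adjusted p = 0.022). The call was lost without the low-count filter, without Vehicle 2, Vehicle 5 or Vismodegib 4, and at clustering resolution 1.2. There the class held 371 tumor cells instead of 671, beside a cluster of 426 cells, not separate at resolution 0.8, that was led by Ttr and muscle genes such as Myh3 and Acta1. Adamts1 in the same cells had a log2 fold change of -1.11 ± 0.34 and was not called (edgeR adjusted p = 0.105).

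The comparison of vehicle-treated tumors with WT cerebellum sets tumor against normal tissue. In granule lineage cells, 14 of 36 tested members were higher and 7 lower in tumors, where 21.2% and 23.3% of all genes were. The median log2 fold change was 0.12 over the members and 0.04 over all genes. DESeq2 called 16 higher and 10 lower of the 72 members to which it gave an adjusted p. Lama5 had the largest difference, with 4.05, 2.18, 1.90, 1.51 and 1.78 CPM in WT 1 to 5 against the 17.5 to 110.2 of vehicle tumors (4.39 ± 0.47, edgeR adjusted p = 5.41e-06). Adamts14, a procollagen peptidase, had 2.49, 4.35, 2.85, 1.14 and 0.891 CPM in WT 1 to 5 and 67.0, 17.8, 45.2, 13.0 and 20.6 in Vehicle 1 to 5 (3.72 ± 0.53), and every tumor lay above every WT animal. With vismodegib it had 14.7, 25.7, 12.3, 6.27 and 6.06 CPM and was not called against vehicle (-1.35 ± 0.48, edgeR adjusted p = 0.0831). Its relative Adamts20 went from 6.88 ± 3.44 to 25 ± 9.20 CPM (1.71 ± 0.33).

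Col4a1, Col4a2, Mmp14, Adamts1 and Loxl1 were also higher in tumor granule lineage cells than in WT. Col4a1 had 10.9, 11.6, 13.3, 9.46 and 7.13 CPM in WT 1 to 5 (1.94 ± 0.26) and Col4a2 4.81 ± 1.85 (1.86 ± 0.30), and both ranges lay below those of vehicle tumors. In WT, Col4a1 was 10.4 CPM pooled, against 7.72 at the fibroblast ratio, 5.60 at the mural and 3.04 at the endothelial one. Col4a2 was 4.57 CPM pooled, against 4.22, 2.33 and 2.17. Each of these values is for 1 source alone, and RNA from several sources would add. The combined part of these sources was not tested. Mmp14 rose from 21.5 ± 6.13 to 104 ± 44.2 CPM (2.18 ± 0.29), Adamts1 from 32.5 ± 8.47 to 119 ± 13.8 (1.77 ± 0.17) and Loxl1 from 12.5 ± 3.37 to 51.9 ± 14.1 (1.98 ± 0.24). Col28a1, Col27a1, Mmp2, Mmp11, Col12a1 and Col9a3 were higher by 2.51, 2.05, 2.04, 1.09, 1.99 and 1.41 on the log2 scale. Mmp11 lost its call without Vehicle 1 or 5 or WT 1, 2, 4 or 5.

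Lower in tumor granule lineage cells were Col9a1, the inhibitors Timp2 and Timp3, and genes at low level. Col9a1 had 19, 17.4, 13.3, 14.4 and 21.4 CPM in WT 1 to 5 and 2.69, 1.84, 0.745, 2.24 and 2.67 in Vehicle 1 to 5 (-3.09 ± 0.31, edgeR adjusted p = 3.19e-06), the opposite direction to its partner chain Col9a3. Timp3 went from 106 ± 19.6 to 48.1 ± 10.8 CPM (-1.23 ± 0.18) and Timp2 from 17.3 ± 5.74 to 6.14 ± 2.30 (-1.59 ± 0.33). Lamb1 was lower, at -1.61 ± 0.34, and what part free RNA had in these differences from WT was not tested. Col1a2 and Col3a1 were called lower (-2.03 and -1.76), at pooled WT levels of 12.5 and 13.5 CPM, below the 20.7 and 28.4 at the fibroblast marker ratio. Fibroblast-like cells were 2.22 ± 0.608% of WT cells and 0.429 ± 0.145% of vehicle cells. Adamts17 was called lower, at -0.82 ± 0.32, with overlap and an edgeR adjusted p of 0.0493, and was not called with DESeq2 or without any of 9 of the 10 animals.

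Tumors and WT were clustered apart, and the stage names cover unlike cells. The WT cells named cycling were 1 cluster led by the mitotic genes Ube2c and Cdc20, and WT clusters with the replication genes Cdc6, Mcm3, Clspn and Chaf1b among their leading genes were named progenitor. In tumors, clusters with Tyms, Clspn and Pcna among their leading genes were named cycling. This make-up and the difference from WT within a stage cannot be told apart. With these names, 9 of 20 tested members were higher and 4 lower in cycling cells (background 15.6% and 18.0%, 33.6% in either direction), 10 of 18 higher and 3 lower in progenitors (18.7% and 21.4%, 40.1% in either direction). In early differentiating cells 3 of 9 were higher and 1 lower (14.7% and 16.4%, 31.1% in either direction), and in late differentiating cells 5 of 7 higher and 0 lower (12.9% and 13.7%). Timp3 changed sign with stage, at -1.88 ± 0.21 in cycling cells and 0.92 ± 0.26 in late differentiating cells, and was called in both (edgeR adjusted p = 1.5e-06 and 0.00888). Col28a1 was at 0 CPM in progenitors of all 5 WT animals and at 12.2 to 25.9 in vehicle.

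In fibroblast-like cells, 12 of 20 tested members were higher and 0 lower in tumors than in WT, where 17.8% and 18.2% of all genes were, and the median log2 fold change was 1.34 against 0.05 over all genes. DESeq2 called 11 higher and 0 lower of the 50 members to which it gave an adjusted p. The called genes were the laminin chains Lama1 (2.46), Lama4 (2.08), Lamb1 (1.37) and Lamc1 (1.82), the type IV chains Col4a1 (1.58) and Col4a2 (1.91), Col15a1 (1.95) and Col18a1 (1.79), Col6a1 (1.07) and Col6a2 (1.37), Mmp14 (1.97) and Timp3 (1.32). Col4a2 had 1344, 1082, 696, 648 and 1135 CPM in WT 1 to 5 and 2317, 2830.5, 5115, 2868 and 3463 in Vehicle 1 to 5, without overlap (edgeR adjusted p = 3.31e-05). Col18a1 had 434, 393, 406, 282 and 641 and 1778, 1067, 1967, 645 and 1245 CPM, also without overlap (edgeR adjusted p = 0.00024). Lama1 had 52.9, 148, 19.3, 37.6 and 247 and 593, 186, 541, 451 and 388 CPM, and WT 5 lay above Vehicle 2.

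The fibrillar collagens of these cells were not called. Col3a1 had a log2 fold change of 0.43 ± 0.26, Col1a2 of 0.15 ± 0.24 and Col1a1 of -0.20 ± 0.37, with edgeR adjusted p of 0.215, 0.652 and 0.714. Over all kept cells, where cell number enters, the same 3 genes were lower in tumors, at -1.96, -2.21 and -2.69 on the log2 scale, all called. The 16 markers that name the class also summed to more in vehicle (42133 to 59587 CPM) than in WT (19920 to 30222), and astrocyte markers in it to 7770.2 to 16162 and 9371 to 11706. What part these had in the differences was not tested. Without Vehicle 3, the call for Col6a2 was lost and the log2 fold changes of Col15a1, Col6a1 and Col6a2 were 1.14, 0.65 and 0.48. The Col6a2 call was also lost without WT 2, 3, 4 or 5, that of Col6a1 without WT 4 or 5, and that of Timp3 without Vehicle 1 or 4 or any of WT 1 to 4. DESeq2 did not call these 3 genes, and edgeR without the low-count filter called neither them nor Lamb1. Timp3 was also not called at clustering resolution 1.2.

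**Figure D5:**
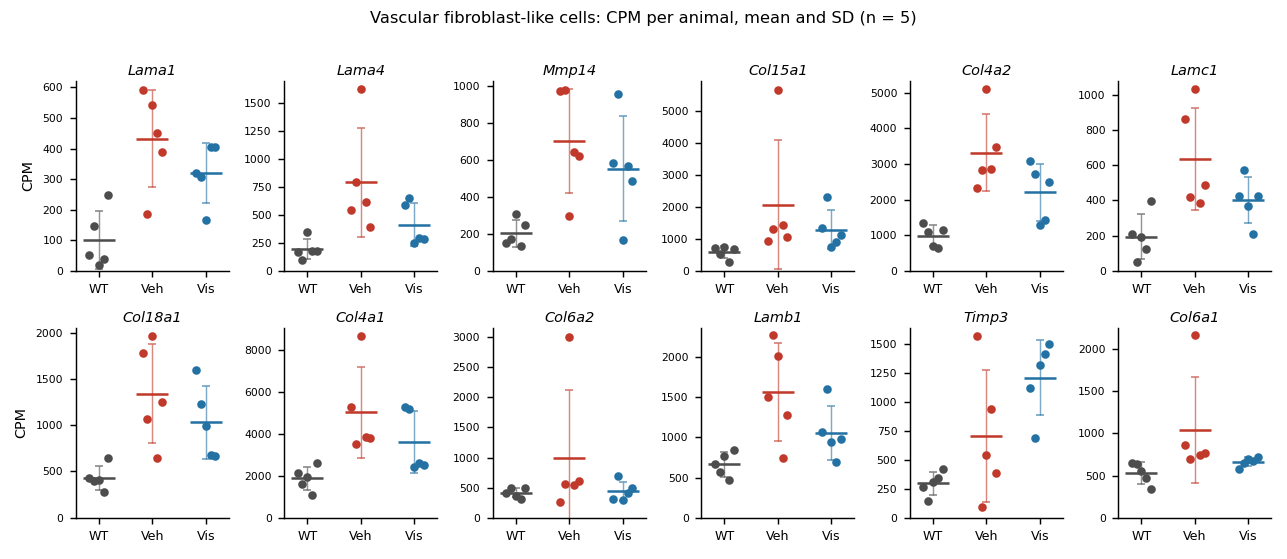
CPM per animal (vertical axes, linear, a scale for each gene) of the 12 members called between vehicle and WT in vascular fibroblast-like cells, by group (horizontal axes: WT, vehicle, vismodegib). Points are animals, the long line is the mean and the bar the SD (n = 5): Col4a2 spans 648 to 1344 CPM in WT, 2317 to 5115 in vehicle and 1277 to 3081 in vismodegib, and Vehicle 3 is the top point for Col15a1 at 5656 CPM.

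Elsewhere the tumors differed from WT in single genes. In endothelial-like cells 1 of 3 tested members was higher and 0 lower (9.89% and 14% of all genes): Col4a2, with 1021, 519, 242, 598 and 629 CPM in WT 1 to 5 and 1051, 1129, 1343, 2523 and 1977 in Vehicle 1 to 5 (1.34 ± 0.32, edgeR adjusted p = 0.0039), every tumor above every WT animal, a call lost without the low-count filter. DESeq2 called 2 of the 9 members to which it gave an adjusted p in this class. In astrocyte-like cells 2 of 7 were higher and 1 lower (11.5% and 11.9%), and DESeq2 called 7 of the 37 members to which it gave an adjusted p. Adamts1 had 81.1, 149, 133, 95.2 and 95.4 CPM in WT 1 to 5 and 661, 368, 257, 159 and 249 in Vehicle 1 to 5 (1.5 ± 0.33), Mmp14 was higher by 1.31 ± 0.27 and Col23a1 lower, at -1.91 ± 0.43. Progenitor markers in astrocyte-like cells summed to 1219 to 1752 CPM in WT and 1793 to 3866 in vehicle. Their part in the Adamts1 and Mmp14 values, both abundant in tumor progenitors, was not tested.

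Over all kept cells, 10 of 57 tested members were higher and 18 lower in tumors, where 23.0% and 25% of all genes were (48.0% in either direction), with medians of -0.43 and 0.03. DESeq2 called 10 higher and 20 lower of the 90 members, all with an adjusted p. Lower in tumors, beside the type I and III chains, were Col5a2 (-1.69), Col4a5 (-1.91), Col4a6 (-1.92), Col6a1 (-1.22), Col13a1 (-1.20), Col16a1 (-1.24), Col26a1 (-2.09), Lama2 (-2.08) and Lamb1 (-1.37), each led by fibroblast-like cells. Col5a2 was also the highest member in GABAergic lineage-like cells, which were 15.1 ± 3.71% of WT cells (mean ± SD) and were named only in WT. Adamts3, led by the Purkinje-like cells that were likewise named only in WT, was lower, at -3.30 ± 0.42. The part of these classes in the differences was not tested. Col23a1, Col9a1, Timp3, Adamts4 and Adamts18 were lower, at -2.20, -2.10, -1.01, -1.15 and -0.99. The 10 higher genes were Lama5, Adamts14, Col28a1, Adamts20, Col27a1, Loxl1, Adamts1, Mmp14, Col9a3 and Col12a1, from 4.73 for Lama5 to 0.83 for Col12a1. Adamts18 lost its call without Vehicle 2 or 5 or WT 2, 3 or 5, Adamts4 without Vehicle 2, 3 or 5 or WT 1 or 3, and Col12a1 without Vehicle 4 or WT 1, 2, 3 or 4 and with cells of at least 1000 UMIs.

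Genes around the members, 67 matrix glycoproteins, proteoglycans, collagen-processing enzymes and receptors listed by role, were read from the same tests. With vismodegib, 10 of the 35 tested in granule lineage cells were lower and 2 higher, where 4.63% and 8.40% of all genes were. The lower genes were the basement membrane glycoprotein Smoc1 (-1.78 on the log2 scale), the fibulins Fbln2 (-2.59) and Fbln1 (-1.43), the microfibril protein Mfap2 (-1.43), the receptors Itga9 (-2.91), Itgb8 (-1.25), Itgb1 (-0.47) and Cd44 (-1.12), the proteoglycan Bcan (-2.06) and Crtap (-1.20), a cofactor of prolyl 3-hydroxylation of collagen. The 2 higher were Cspg5 (1.97), a neuronal proteoglycan, and Fn1 (1.89), fibronectin. Smoc1 went from a mean of 83.3 CPM in vehicle to 24.5 in vismodegib, against 4.30 in WT. In fibroblast-like and endothelial-like cells edgeR called 0 of 11 and 0 of 8 partner genes, with 2 at an unadjusted p under 0.05 in each class (backgrounds of 1.22% and 0% in either direction). DESeq2 was not read for this list. In astrocyte-like cells 1 of 13, the proteoglycan Ncan, was higher (1.53 ± 0.40), where 1.44% of all genes were. Over all kept cells the balance was the other way, with 10 of 50 partner genes higher and 4 lower, where 9.23% and 4.69% of all genes were. Among the higher were the small leucine-rich proteoglycan Ogn (3.26), the integrins Itga3 (1.97) and Itgb5 (1.59), the basement membrane protein Npnt (1.72) and Pcolce (1.30), an enhancer of procollagen processing.

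Against WT, 14 of 36 tested partner genes were higher and 10 lower in granule lineage cells of vehicle tumors, where 21.2% and 23.3% of all genes were. Smoc1 (4.19), Itga9 (3.68), Mfap2 (3.64), elastin Eln (2.88), the hyaluronan receptor Cd44 (2.56) and the collagen receptor Ddr2 (2.47) were higher, and tenascin Tnc (-3.39), nidogen Nid1 (-1.98) and the laminin receptor Itga6 (-1.76) lower. The collagen-modifying enzymes Plod1, Plod2, Plod3, Bmp1 and Colgalt1 were higher, from 0.74 to 1.44, while the collagen chaperone Serpinh1 was lower, at -0.58 ± 0.20. In fibroblast-like cells 5 of 14 were higher and 1 lower, where 17.8% and 18.2% of all genes were. The higher genes were Igfbp7 (3.31), Fbln2 (2.24), Mfap2 (1.4), Bgn (1.39) and Sparc (0.70), and Ogn was lower (-3.43). In astrocyte-like cells 3 of 16 were higher, Bcan (1.89), Cspg5 (1.91) and Ncan (1.37), and 2 lower, Nid1 (-1.06) and the proteoglycan Vcan (-2.23), where 11.5% and 11.9% of all genes were. In endothelial-like cells 1 of 8, Igfbp7 (1.83), was higher and 0 lower, where 9.89% and 14% of all genes were. Over all kept cells 11 of 50 were higher and 17 lower, where 23.0% and 25% of all genes were, with Ogn (-5.13), the elastic fiber protein Fbln5 (-3.31), Pcolce (-1.82) and Npnt (-1.76) among the lower.

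Of the 90 members, 45 were called in at least 1 of the 10 edgeR fits by comparison and cell class, 19 were tested and called in none, and 26 passed edgeR's low-count filter in none. The 45 were 70.3% of the 64 members tested, where 57.1% of all 14027 genes tested were called in at least 1 fit. The 19 were Adamts5, Adamts6, Adamts10, Adamts12, Adamts19, Col2a1, Col5a1, Col6a3, Col7a1, Col9a2, Col11a2, Lamb2, Loxl2, Loxl3, Mmp15, Mmp16, Mmp19, Mmp28 and Timp4. The 26 had 13 to 176 UMIs in kept cells and included Col4a3, Col4a4, Col5a3, Col8a1, Col8a2, Col14a1, Col17a1, Col19a1, Col20a1, Col22a1, Col25a1, Lama3, Lamb3, Lamc3, Lox, Mmp8, Mmp9, Mmp12, Mmp17, Mmp25, Adamts7, Adamts8, Adamts9, Adamts15 and Adamts16. DESeq2, which filters otherwise, gave each of the 26 an adjusted p in at least 1 class and called 7. With vismodegib over all kept cells it called Col17a1, Col19a1, Col8a1 and Lamc3 higher, from 1.44 for Lamc3 to 2.41 for Col17a1 on the log2 scale, and Col17a1 (2.39) and Col19a1 (2.66) also in granule lineage cells. Against WT it called Adamts16 (-2.36) and Col14a1 (-2.32) lower over all kept cells and Col5a3 (2.85) higher in astrocyte-like cells, with DESeq2 adjusted p from 0.00111 to 0.0455 over these calls. Col3a1, Loxl2, Col7a1 and Col20a1 share exon bases on 1 strand with another annotated gene, so their UMIs are uncertain to that extent.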

How the data were processed

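Gene counts of single cells were analysed from 15 mice, 5 per group, each a separate animal. For each mouse the authors deposited raw UMI counts, with genes as rows and cell barcodes as columns. Submitters' processing notes name STAR 5.4b, Seurat 2.3.0, bcl2fastq 2.18 and the builds mm10 and hg19. Tumor runs were spiked with human cells, and the authors kept barcodes that were mostly mouse.

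Barcodes with at least 500 UMIs and 500 genes, and under an upper limit of 5 SD, were kept. No doublet caller was run, so doublets under that limit remain. Cells were clustered at resolution 0.8 (igraph 0.11.9, scikit-learn 1.9.0), without the members and their partner genes, and named by marker lists. UMI counts were summed per animal and class where an animal had at least 5 cells, and tested by edgeR 4.0.16 (TMM, quasi-likelihood, R 4.3.3) over all genes that passed filterByExpr, with only the compared groups in each fit. A call is a Benjamini-Hochberg adjusted p under 0.05. Shares of cells were compared by exact permutation tests (scipy 1.17.1). CPM was computed from the sums, as UMIs per 1000000 UMIs of that class in that animal. UMIs correct for amplification, and total UMIs per animal of 2310474 to 17708677 limit the precision for rare genes.

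Members and lists were chosen with earlier results of these data known. Genes named are the 15 members with the most UMIs, the 3 highest in each class in vehicle and WT, every called member (beyond 25, the largest changes), the most abundant of each family and the called partner genes (beyond 10, the largest changes). Others were named after their values were seen. 1 of the 26 members that passed edgeR's filter in no fit is not reported here. Recovery was read on simulated counts with known changes, for vismodegib against vehicle. In granule lineage cells (12430 genes), 60 of 98 counted changes of log2 size 1 (61.2%) and 93 of 96 of size 2 (96.9%) were recovered. In fibroblast-like cells (329 genes) these were 17 of 32 (53.1%) and 32 of 32 (100%). There the shares cover 32 genes of each size and 229 unchanged ones, not all 329 genes. Recovery over every change put in was not counted. Alternatives were DESeq2 1.42.0, RLE scaling, no filter, a minimum of 1000 UMIs, resolution 1.2, leaving out each animal, the replicate block, the set of tumors as covariate and, chosen after seeing the data, each stage alone.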

Additional observations from a re-analysis of the deposited data

Results flagged for a closer look

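In 14 of 177 groups of 5 animals screened, the highest or lowest animal lay apart from the others by Dixon's 95% critical value, where chance gives about 1 in 20.

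Vehicle 3 stood above the other vehicle tumors in fibroblast-like cells, with Col15a1 at 5656 CPM (the next animal had 1418), Col6a1 at 2164 (862) and Col6a2 at 2999.9 (613), and over all kept cells with Col16a1 at 5.96 CPM (2.98). Vehicle 5 was highest for Col28a1, at 17.0 CPM over all kept cells (10.3) and 16.6 in granule lineage cells (9.69), and Vismodegib 5 was highest for Col28a1 in granule lineage cells at 2.24 CPM (0.914). Vismodegib 2 was highest for Col11a1, at 42.8 CPM over all kept cells (30.2) and 43.0 in granule lineage cells (31.3).

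In granule lineage cells Mmp2 was highest in Vehicle 1 at 10.8 CPM (5.93) and in Vismodegib 1 at 4.74 (2.74), Lamb1 was lowest in Vehicle 2 at 1.41 (2.20), and Lama5 was highest among WT animals in WT 1 at 4.05 (2.18). Over all kept cells Col5a2 was lowest in Vehicle 4 at 4.84 CPM (9.13).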

How the results depend on the processing

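Of the counts and shares recomputed under the alternatives, 190 stayed on their side of the threshold or within 1.5 times, 20 moved further, 10 lost a call, all for the share of fibroblast-like cells with 1 animal left out, and 1 gained a call. Of the log2 fold changes of called members, 1550 kept direction and call, 4 reversed, and the rest kept direction but lost the call. With each granule stage alone, fewer members had enough counts: against the 17 called with vismodegib over the whole lineage, 7 were called in cycling cells, 8 in progenitors, 1 in early and 0 in late differentiating cells, and against the 21 called between vehicle and WT, 13, 13, 4 and 5. Reversed were Col12a1 (-0.077) and Timp3 (-0.49) with vismodegib in late differentiating cells, Timp3 in progenitors (-0.26), and Timp3 of vehicle against WT in late differentiating cells (0.92).

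In astrocyte-like cells, the 1 call with vismodegib became 0 at resolution 1.2 and 2 with the set of tumors as covariate, and 0 to 2 when 1 animal was left out (0 without Vehicle 2, Vehicle 5 or Vismodegib 4, and 2 without Vehicle 4 or Vismodegib 2). The 3 calls against WT became 7 with DESeq2 and 10 without the low-count filter, and 3 to 4 with 1 animal left out. The 1 call against WT in endothelial-like cells became 2 with DESeq2 and 1 to 2 with 1 animal left out (2 without Vehicle 2 or Vehicle 4). The cause was not tested. Leaving out 1 animal gave 15 to 25 calls with vismodegib over all kept cells, 15 to 19 in granule lineage cells and 0 in fibroblast-like and endothelial-like cells, and against WT 26 to 31, 20 to 23 and, in fibroblast-like cells, 9 to 13.

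The share of fibroblast-like cells was 0.594 percentage points higher in vismodegib, and 0.520 to 0.673 with 1 animal left out, where 4 against 5 allow too few arrangements for 1 class alone to pass after adjustment over 4 classes, so nothing is read from the lost calls. For endothelial-like, mural-like and astrocyte-like cells the differences were 0.108 to 0.335, 0.0525 to 0.158 and 1.16 to 2.56 points with 1 animal left out. The astrocyte-like difference was 2.15 points and passed the test at resolution 1.2, at 1.30, with 371 tumor cells in the class instead of 671. Same-numbered animals correlated from -0.19 to 0.41 in their deviations. Replicates 4 and 5 of vismodegib and vehicle correlated best with their own number, at 0.36 and 0.41, and no other pair did, so the numbers were not taken to pair the animals. With the replicate block, 24 members were called with vismodegib over all kept cells and 19 in granule lineage cells, and all 10 counts stayed within 1.5 times, although Timp1 with vismodegib and Adamts18, Col12a1, Mmp11, Adamts17 and Col6a2 against WT lost their calls. Depth limits the scarce classes most: 54 of the 90 members did not pass edgeR's low-count filter in granule lineage cells and 73 in fibroblast-like cells with vismodegib, while DESeq2 gave an adjusted p to 74 and 31 members.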
